A study of Mus musculus with 108 samples.

Results

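The synaptic vesicle release genes are 43 genes, chosen by name, whose proteins carry transmitter-filled vesicles to the presynaptic membrane and fuse them with it. They are 43 of the 18194 genes that had a probe set of their own on the array, and the rule used their names, although the list was drawn up with earlier results of these data known. In each tissue a member was represented by the probe set with the highest mean there, among the probe sets annotated to that gene alone. With a filter of log2 5 on at least 8 arrays, 36 members were tested in the optic nerve head (ONH) and 38 in the retina. Rab3b, Sv2c, Syn3, Sypl2, Syt2, Syt3 and Syt6 were below the filter in the ONH, and Sv2c, Syn3, Sypl2, Syt3 and Syt6 in the retina.

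The study followed glaucoma in DBA/2J mice, an inbred strain that develops iris disease, raised eye pressure and loss of retinal ganglion cells with age. RNA of 60 ONHs and 48 retinas, from 50 female mice, was hybridised to 1 array per tissue sample, and eyes were staged. The control eyes came from D2-Gpnmb+ mice (written DBA/2J-Gpnmb+ in some labels), which carry a functional Gpnmb allele on the same background, at 10.5 months of age. The ONH had 10 control arrays, 10 preglaucoma arrays of DBA/2J mice at 4.5 months, and, at 10.5 months, 10 and 11 arrays in the pair of DBA/2J sets without or with early glaucoma, 9 with moderate and 10 with severe glaucoma. The retina had 10 control, 10 and 10 no or early, 8 moderate and 10 severe arrays, all at 10.5 months. Each n below counts arrays, not mice. In each tissue the control arrays came from 7 mice and the severe arrays from 9, and the preglaucoma ONH arrays came from 7. Both eyes were used from 10 mice in the ONH and from 7 in the retina. The labels of some control and no or early ONH arrays add that no radiation was given, and all mice were kept under the same light cycle. The ONH punch also held some central retina, choroid and sclera, and the retina sample held no ONH. The signal of Gpnmb, by which the strains differ, was at most 7.92 on the DBA/2J ONH arrays, against 8.35 to 9.80 on the control ONH arrays, and at most 6.47 on the DBA/2J retina arrays, against 7.29 to 7.88 on the control retina arrays, so every array matched its strain label. The astrocyte list, of the glia of the ONH, had a median signal of 9.93 on severe and 10.04 on control ONH arrays, and photoreceptor markers were also well above log2 5 on all ONH arrays except severe array 6 (3.84).

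At a synapse, vesicles filled with transmitter dock at the active zone, are primed by Munc13 and CAPS proteins, and fuse when calcium entering the terminal acts on synaptotagmin. Fusion is driven by the SNARE proteins Vamp on the vesicle and syntaxin and Snap25 on the plasma membrane, is clamped and promoted by complexins, and is followed by SNARE disassembly by Nsf and its SNAP adaptors. In the retina, photoreceptors and bipolar cells release transmitter at ribbon synapses, which use complexins 3 and 4, while amacrine cells use conventional synapses with complexins 1 and 2. Ganglion cells receive these inputs and send their axons out through the ONH.

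The promoters of 4 members are shown because Cplx1, Vamp1 and Syn1 fell in both tissues at the severe stage and Unc13c had the widest gap between tissues. Each runs from 250 bases before to 50 bases after the gene's start in RefSeq annotation of build GRCm38.p6, 5′ to 3′ on the gene's strand, at chr5:108549978-108550277 (Cplx1, minus strand), chr6:125215331-125215630 (Vamp1, plus strand), chrX:20920869-20921168 (Syn1, minus strand) and chr9:73968988-73969287 (Unc13c, minus strand). Capitals mark matches on either strand to TGACG (the core of the cAMP response element), GGGGCGGGG (a GC box), CAGGTG (an E-box) or GCATGCGC (the core of the NRF1 site), and overlapping matches merge into 1 run of capitals.
Cplx1: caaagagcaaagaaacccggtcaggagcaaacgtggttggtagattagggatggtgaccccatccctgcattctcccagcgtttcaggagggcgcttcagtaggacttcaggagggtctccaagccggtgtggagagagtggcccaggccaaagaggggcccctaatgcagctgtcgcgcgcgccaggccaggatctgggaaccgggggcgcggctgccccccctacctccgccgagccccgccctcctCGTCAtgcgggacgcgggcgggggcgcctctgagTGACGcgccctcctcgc
Vamp1: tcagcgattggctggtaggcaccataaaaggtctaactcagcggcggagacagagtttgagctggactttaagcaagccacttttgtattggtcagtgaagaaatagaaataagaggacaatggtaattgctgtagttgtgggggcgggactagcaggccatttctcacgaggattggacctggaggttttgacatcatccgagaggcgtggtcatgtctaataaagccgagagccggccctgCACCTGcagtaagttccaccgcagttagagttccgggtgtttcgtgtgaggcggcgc
Syn1: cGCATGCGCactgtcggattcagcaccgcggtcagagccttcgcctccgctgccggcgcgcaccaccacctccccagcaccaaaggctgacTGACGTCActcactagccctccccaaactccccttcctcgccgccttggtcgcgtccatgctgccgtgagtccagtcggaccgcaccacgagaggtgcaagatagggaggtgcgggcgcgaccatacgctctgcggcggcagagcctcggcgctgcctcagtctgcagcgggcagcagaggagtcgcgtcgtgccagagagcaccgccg
Unc13c: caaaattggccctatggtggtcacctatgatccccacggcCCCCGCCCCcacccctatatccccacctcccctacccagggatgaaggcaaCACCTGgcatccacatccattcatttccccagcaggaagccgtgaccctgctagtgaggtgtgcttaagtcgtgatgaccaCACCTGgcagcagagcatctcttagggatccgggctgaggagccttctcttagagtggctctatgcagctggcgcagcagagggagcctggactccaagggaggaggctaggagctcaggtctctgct

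The promoters of Cplx1, Vamp1, Syn1 and Unc13c held 67%, 51.7%, 68.3% and 59.3% G and C, against a median of 52.7% over the 32851 promoters in the table. Of the 33 members in that table, 13 had a GC box match, against 12.9% of all 27025 genes. TGACG was matched in 7 of the 33 members, against 23% of genes. The E-box was matched in 10 of the 33 members, against 22.6% of genes, and the NRF1 core in 2 of the 33 members, against 3.05% of genes. These are letter matches in the reference sequence, and nothing measured here shows whether a factor bound there.

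Signals are log2 values after RMA, the array summary that corrects background, quantile-normalises and combines probes, so that a difference of 1 is a factor of 2 and levels of different genes cannot be set against each other. Differences were fitted with limma over all genes of a tissue, with the mouse as a random block, and a gene was called where its Benjamini-Hochberg adjusted p was under 0.05. Most arrays correlated with the median of their group at 0.975 to 0.993 (53 ONH arrays) or 0.972 to 0.998 (47 retina arrays). The 8 remaining arrays were ONH control array 10, preglaucoma array 5, no or early array 8 of the second set, moderate arrays 5 and 8 and severe arrays 3 and 6, and retina moderate array 2. Severe ONH arrays 3 and 6 were the farthest, at 0.948 and 0.905. Severe arrays 4 and 5, both eyes of 1 mouse, had low Xist in both tissues (2.89 to 6.64, against at least 10.79 on the other arrays) although the mouse was labelled female. All control mice had numbers of a single range, which 3 severe and 2 moderate arrays of each tissue shared.

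In the severe ONH members of all 8 role groups fell. Of the 36 members tested, 27 fell against control, none rose, and 9 were not called, while 13.5% of all 12100 genes tested were called lower and 10.7% higher. The median difference was -0.98 over the members and 0.00 over all genes. Unc13c fell 20.1-fold. Cplx1 fell by a fitted 9.29-fold, a size that is uncertain because 4 of its 10 severe arrays lay under log2 5. There were 8 members (Unc13c, Cplx1, Rims1, Rims2, Rims3, Syn2, Syt4 and Vamp1) with no overlap between severe and control arrays, against 2.02% of all genes. In these bulk samples, fewer cells of a type and less RNA per cell cannot be told apart. Strain and stage differ together in every comparison with control, in both tissues, and cannot be told apart there.

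**Figure D1:**
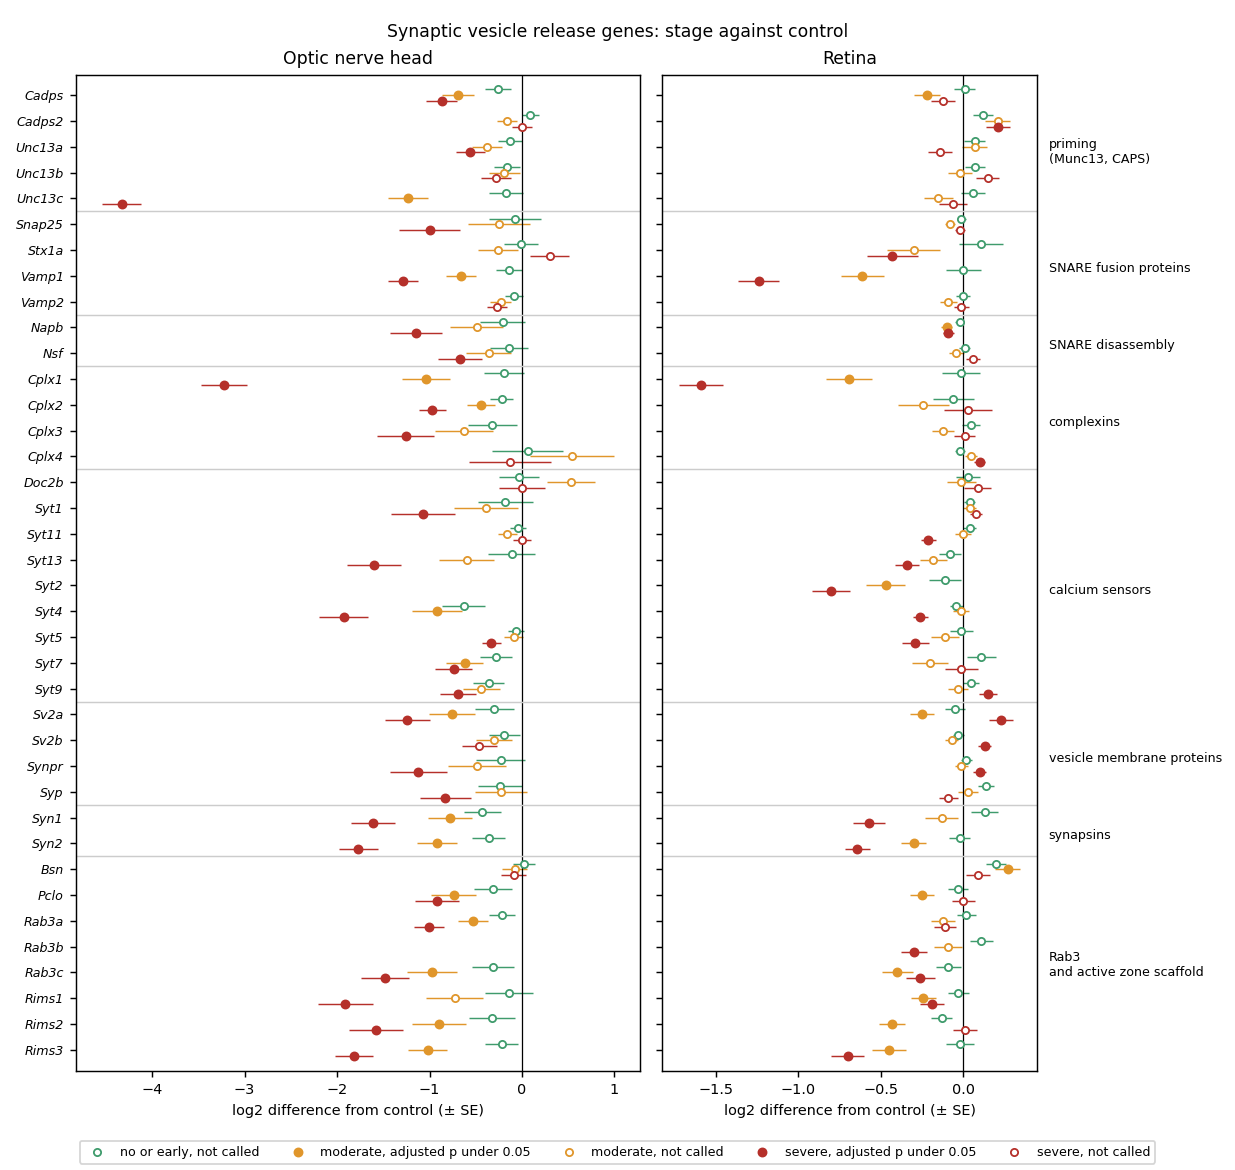
Log2 difference from control (x axis, ± SE) for each tested member, grouped by role, in the ONH (left) and retina (right), with points for no or early, moderate and severe eyes. Filled points passed an adjusted p of 0.05. The role labelled calcium sensors holds the synaptotagmin and Doc2 genes. In the ONH, 27 of 36 severe points are filled and all lie left of 0, and in the retina filled severe points lie on both sides, with 15 lower and 6 higher. The 15 include Syt2, whose fall is not independent of the filter.

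Of the priming genes, 3 of 5 fell in the severe ONH (median -0.56). Unc13c encodes Munc13-3, a priming protein studied mostly in the cerebellum. Its signal was 5.99 to 9.01 with a median of 7.08 on the severe arrays, against 10.72 to 11.72 with a median of 11.52 on the control arrays. Every severe array lay below every control array, and severe array 9 was the highest of its group. The difference was -4.33 (SE 0.213, adjusted p = 3.04e-24, n = 10 and 10). All 3 single-gene probe sets of Unc13c were called lower, at -4.33, -4.67 and -4.99. The paralogues moved far less: Unc13a (Munc13-1) fell by 0.56 (adjusted p = 0.00517) at a low signal of 3.62 to 5.19 in severe and 4.55 to 5.66 in control ONHs, and Unc13b (Munc13-2) differed by -0.28 (adjusted p = 0.216), with 8.18 to 9.46 in severe and 8.64 to 9.53 in control ONHs. Cadps, which encodes CAPS1 and acts in vesicle priming, fell by 0.87 (adjusted p = 5.50e-05), and Cadps2 differed by 0.00 (95% interval -0.21 to 0.21).

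Of the complexins, 3 of 4 fell in the severe ONH. Cplx1, the complexin of conventional synapses, had 3.04, 5.16 and 6.24 as the lowest, median and highest signal on severe arrays, against 7.51, 8.33 and 8.97 on control arrays. No severe array reached the lowest control array, and the difference was -3.22 (SE 0.251, adjusted p = 1.02e-15). Cplx2, its close relative, had 8.31, 8.76 and 9.38 in severe and 9.14, 9.70 and 10.42 in control ONHs, and fell by 0.97 (adjusted p = 6.83e-07) with a small overlap of the groups. Cplx3, a ribbon synapse complexin, had 3.13, 6.63 and 7.27 in severe and 6.28, 7.48 and 7.98 in control ONHs and fell by 1.26 (SE 0.309, adjusted p = 0.00149). Cplx4, the other ribbon synapse complexin, was not called (-0.13, 95% interval -1.03 to 0.76): it had 4.01, 10.01 and 10.53 in severe and 7.74, 9.42 and 10.40 in control ONHs. Without severe arrays 3 and 6, Cplx4 was called higher, by 0.77 (adjusted p = 0.04), but without all arrays that stood apart and the mouse with low Xist it was not (0.63, adjusted p = 0.131).

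Of the SNARE fusion genes, 2 of 4 fell. Vamp1, synaptobrevin 1 of the vesicle, had 4.99, 5.23 and 5.46 in severe and 5.82, 6.45 and 7.06 in control ONHs, with no overlap, and fell by 1.29 (SE 0.162, adjusted p = 7.99e-09). Vamp2, the main brain synaptobrevin, had 9.85, 10.38 and 10.78 in severe and 10.22, 10.64 and 10.97 in control ONHs and was not called (-0.27, 95% interval -0.49 to -0.04, adjusted p = 0.0719). Snap25, the plasma membrane SNARE, fell by 1.00 (SE 0.326, adjusted p = 0.0186), with 6.58, 11.95 and 12.15 in severe and 11.81, 12.26 and 12.37 in control ONHs. That size rested on severe arrays 3 and 6, at 9.73 and 6.58: without them the difference was -0.22 (adjusted p = 0.017). Stx1a, syntaxin 1A, was not called (0.30, adjusted p = 0.332). Both SNARE disassembly genes fell, Napb (beta-SNAP) by 1.15 (adjusted p = 0.00135) and Nsf, the ATPase that takes SNARE complexes apart, by 0.67 (adjusted p = 0.032), and Nsf was not called without severe arrays 3 and 6 (-0.28, adjusted p = 0.373).

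Of the 8 tested synaptotagmin and Doc2 genes, 6 fell. Syt4, a synaptotagmin of vesicles and dense core granules, had 5.53, 8.81 and 9.31 in severe and 9.74, 10.14 and 10.57 in control ONHs, with no overlap (-1.93, SE 0.269, adjusted p = 1.09e-07). Syt13 had 4.71, 7.88 and 8.64 in severe and 8.11, 9.04 and 9.74 in control ONHs and fell by 1.60 (SE 0.295, adjusted p = 2.90e-05). Syt1, the sensor for fast synchronous release, had 4.82, 9.23 and 9.84 in severe and 8.67, 9.80 and 10.21 in control ONHs. It fell by 1.07 (adjusted p = 0.0161), with 8 of the 10 severe arrays inside the control range. Syt7, a slower sensor, fell by 0.74, Syt9 by 0.69 and Syt5 by 0.33, while Syt11 and Doc2b differed by 0.00 each. Syt1, Syt5 and Syt9 were not called without severe arrays 3 and 6 (-0.35, -0.28 and -0.43; adjusted p = 0.262, 0.0504 and 0.088).

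Of the Rab3 and active zone genes, 6 of 7 fell, with a median of -1.48. Rims1, which ties vesicles to Munc13 and calcium channels, had 6.23, 9.91 and 10.62 in severe and 11.03, 11.23 and 11.33 in control ONHs (-1.91, SE 0.301, adjusted p = 1.60e-06). Rims2, its paralogue, had 5.71, 9.35 and 9.95 in severe and 10.03, 10.31 and 10.59 in control ONHs (-1.58, SE 0.289, adjusted p = 2.47e-05). Rims3, a short RIM, had 5.52, 6.39 and 6.80 in severe and 7.07, 8.06 and 8.70 in control ONHs (-1.82, SE 0.205, adjusted p = 3.37e-10). The severe arrays of all 3 RIM genes lay wholly below the control arrays. Rab3c and Rab3a, GTPases that attach vesicles to RIM, fell by 1.48 and 1.01 (adjusted p = 1.61e-05 and 2.40e-06). Of the giant scaffolds, Pclo (Piccolo) fell by 0.92 (adjusted p = 0.00262; -0.51 and adjusted p = 0.0561 without severe arrays 3 and 6) and Bsn (Bassoon) was not called (-0.09, 95% interval -0.36 to 0.18).

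Both tested synapsins fell. Syn2, which tethers vesicles in the reserve pool, had 6.42, 8.41 and 9.30 in severe and 9.33, 9.88 and 10.36 in control ONHs, with a narrow gap between the groups (-1.77, SE 0.21, adjusted p = 1.61e-09). Syn1 had 4.21, 5.70 and 6.66 in severe and 6.08, 7.28 and 7.80 in control ONHs, with overlap (-1.61, SE 0.235, adjusted p = 3.01e-07). Of the vesicle membrane proteins, 3 of 4 fell: Sv2a, the vesicle glycoprotein that binds levetiracetam, by 1.24 (adjusted p = 8.16e-05), Synpr (synaptoporin) by 1.12 (adjusted p = 0.00456) and Syp (synaptophysin) by 0.83 (adjusted p = 0.019). Sv2b was not called (-0.46, adjusted p = 0.075). Synpr and Syp were not called without severe arrays 3 and 6 (-0.39 and -0.31; adjusted p = 0.052 and 0.312), and neither was Unc13a (-0.38, adjusted p = 0.0607).

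**Figure D2:**
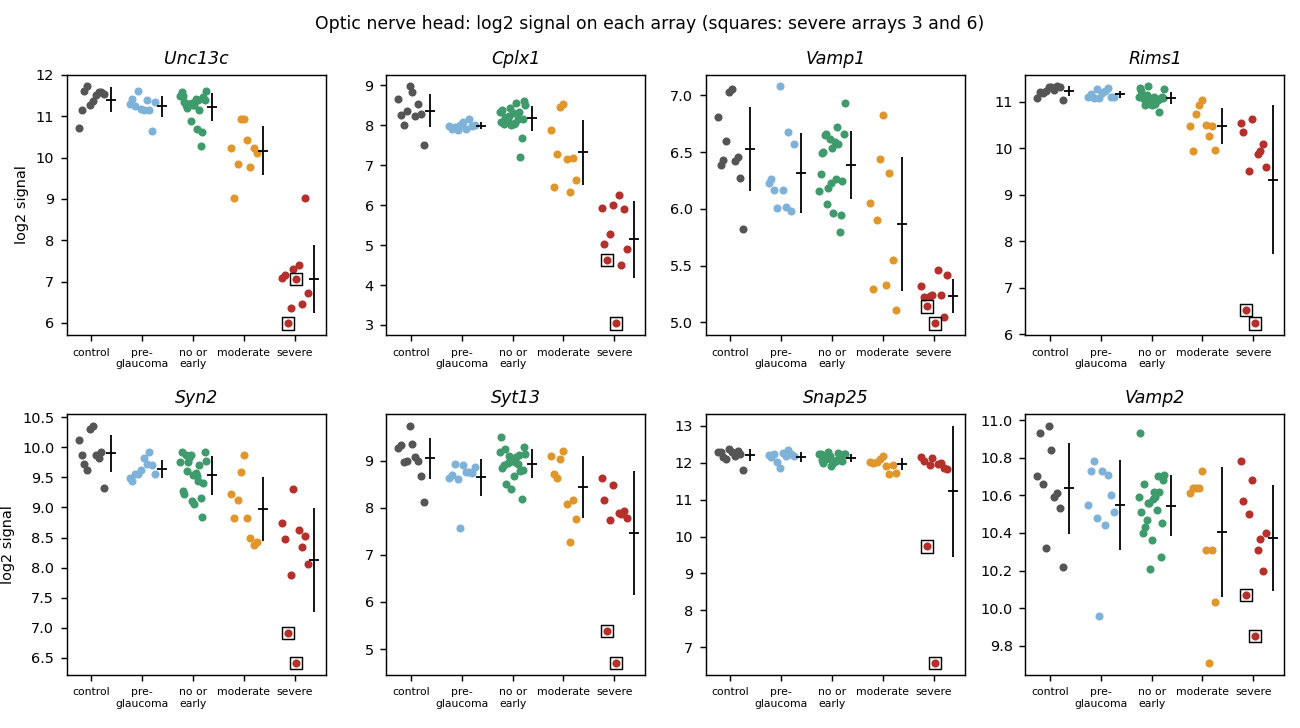
Log2 signal (y axis) of selected members on each ONH array, by stage from control to severe (x axis), with the mean and SD beside each group. Squares mark severe arrays 3 and 6. For Unc13c and Cplx1 the 10 severe arrays lie below all control arrays, and for Snap25 the marked arrays at 9.73 and 6.58 lie apart from the other severe arrays.

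Without severe arrays 3 and 6, 20 members were called in severe against control ONHs (19 lower, 1 higher, median -0.54; 19.3% of all genes called), and 8 of the 27 calls were lost. Unc13c differed by -4.20, Cplx1 by -2.88 and Vamp1 by -1.25 in that fit. Others kept their call at a smaller size there, with Rims1 at -1.16, Rims2 at -0.91, Syt13 at -0.99, Syt4 at -1.33, Sv2a at -0.72, Cplx3 at -0.59 and Napb at -0.56. With all arrays kept, markers of several cell types were also called in severe against control ONHs, not all of them lower. The amacrine and horizontal cell markers fell in 9 of 11 tested (15 listed; median -1.37), with a list mean of 4.69 to 8.38 on severe and 7.83 to 9.26 on control arrays. The bipolar cell markers fell in 7 of 8 tested (11 listed; median -0.96), with list means of 5.11 to 7.74 in severe and 6.93 to 8.46 in control ONHs. Ganglion cell markers fell in 9 of 10 tested (15 listed; median -3.08), with list means of 5.20 to 6.92 in severe and 8.11 to 8.93 in control ONHs. None of the 15 tested photoreceptor markers (16 listed) was called, and their list mean ran from 3.84 to 9.75 in severe and from 7.71 to 9.93 in control ONHs. Retinal pigment epithelium markers fell in 5 of 6 (median -0.90; list means 6.91 to 9.68 in severe and 9.67 to 10.21 in control ONHs) and Müller glia markers in 4 of 6 (median -0.27; 10.03 to 10.58 in severe and 10.58 to 10.94 in control ONHs). Astrocyte markers fell in 2 of 6 and oligodendrocyte markers in 2 of 5, and microglia markers rose in 4 of 7. The log2 scale has no true 0, so no marker can be read as absent.

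The amount of central retina caught in the punch was not measured. With the mean of the amacrine and bipolar lists as a covariate, 13 members were called in severe against control ONHs (10 lower, 3 higher; 15.7% of all genes). Cplx1, Cplx2, Rab3a, Rims1, Rims3, Syn1, Syn2, Syt4, Unc13c and Vamp1 were the 10 lower, with Unc13c at -4.15, Cplx1 at -2.34, Vamp1 at -0.95, Rims1 at -0.72 and Syn1 at -0.70. Cplx4, Syt1 and Doc2b were the 3 higher. The covariate is itself built from neuronal genes that fell, and the part of retinal content in the members' falls was not tested.

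**Figure D3:**
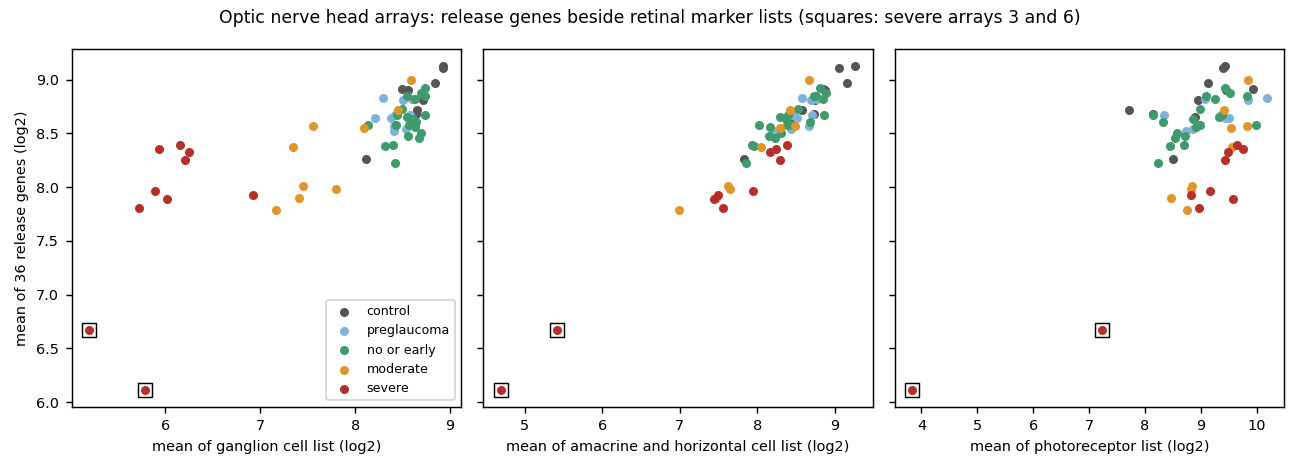
Mean log2 signal of the tested members on each ONH array (y axis) against the mean of the ganglion cell, amacrine and horizontal cell, or photoreceptor markers (x axes), coloured by stage, with squares on severe arrays 3 and 6. Those arrays, with member means of 6.67 and 6.11, lie at the low end.

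At the moderate stage, 15 of 36 members were called in the ONH, all lower, where 11.9% of all genes were called lower. The median difference from control was -0.49 over the members and 0.01 over all genes, and no member separated moderate from control arrays (0.562% of all genes did so on the low side). The lower members were 5 of 7 Rab3 and active zone genes, both synapsins, 2 of 5 priming genes and 2 of 4 complexins. Also lower were 2 of 8 synaptotagmin and Doc2 genes, 1 of 4 SNARE fusion genes and 1 of 4 vesicle membrane genes. Neither SNARE disassembly gene was called. Unc13c had 9.01, 10.22 and 10.93 as its lowest, median and highest signal in moderate ONHs, against 10.72, 11.52 and 11.72 in control ONHs, and fell by 1.23 (SE 0.218, adjusted p = 3.52e-05). Cplx1 had 6.32, 7.18 and 8.53 in moderate and 7.51, 8.33 and 8.97 in control ONHs and fell by 1.04 (SE 0.257, adjusted p = 0.00217). The moderate arrays of both genes reached into the control range. Rims3 fell by 1.02 (adjusted p = 0.000262), Rab3c by 0.97 (adjusted p = 0.00635), Syt4 and Syn2 by 0.92 each (adjusted p = 0.0119 and 0.00128), and Vamp1 by 0.66 (adjusted p = 0.00288). Snap25 (-0.25), Vamp2 (-0.23), Syt1 (-0.39) and Syp (-0.23) were not called. Doc2b and Cplx4 had the 2 positive estimates, 0.53 and 0.54, and neither was called.

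The moderate count moved with the arrays and mice used. It was 25 without the arrays that stood apart and the mouse with low Xist, when 33.1% of all genes were called in either direction, against 21.6% with all arrays. It was 9 without moderate array 10 (17.3% of all genes), 7 when the range of mouse numbers entered the model (15.4% of all genes), and 0 among mice of the control number range alone (1.69% of all genes), where only 2 moderate arrays remained. With the photoreceptor list mean as a covariate the count was 26 (28.5% of all genes). Ganglion cell markers were called lower in 7 of 10 at this stage (median -0.88; list means 7.17 to 8.59 in moderate and 8.11 to 8.93 in control ONHs), Müller glia markers in 5 of 6 (median -0.32), and microglia markers were called higher in 5 of 7. Amacrine and horizontal cell markers were called lower in 5 of 11 and bipolar markers in 3 of 8, with list means of 6.99 to 8.67 and 6.67 to 8.08 in moderate ONHs, against 7.83 to 9.26 and 6.93 to 8.46 in control ONHs. Their part in the members' falls was not tested.

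In no or early glaucoma none of the 36 members was called in the ONH against control, where 2.86% of all genes were called. The median difference was -0.19 over the members and -0.00 over all genes, and 33 members were below 0 (51% of all genes). At an unadjusted p under 0.05, 3 members were counted: Syt4 (-0.63), Syn1 (-0.43) and Syt9 (-0.36), with adjusted p of 0.138 to 0.283. The other fits of this comparison called at most 7 members, the 7 without the arrays that stood apart and the mouse with low Xist. In preglaucoma ONHs at 4.5 months none of the 36 was called against control (6.08% of all genes). Their median difference was -0.17, against -0.03 over all genes, and 30 were below 0 (56.1% of all genes). An unadjusted p under 0.05 was found for 4, namely Rims3, Syt5 and Syt11 with negative and Stx1a with positive differences. Other fits of this comparison called 0 to 5. Strain, age and mouse-number range all differ between preglaucoma and control ONHs, so their effects cannot be told apart. No or early ONHs against preglaucoma ONHs also gave none (14.6% of all genes), with 3 at an unadjusted p under 0.05 and up to 5 in other fits. Age, stage and mouse-number range differ together there. The counts from other fits and at an unadjusted p here stand without a share of all genes. They are not read as results about the members.

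Unc13c was lower in moderate than in earlier ONHs, and lower again in severe ONHs. Its ONH median was 11.52 in control, 11.27 in preglaucoma, 11.30 in no or early, 10.22 in moderate and 7.08 in severe eyes. The first 3 of these groups overlapped and did not differ beyond their spread. The moderate median lay below every array of the earlier groups, whose lowest was 10.28, and the highest severe array and the lowest moderate array both read 9.01. Cplx1 ran 8.33, 7.98, 8.16, 7.18 and 5.16 over the same stages, and Vamp1 6.45, 6.20, 6.49, 5.90 and 5.23. Moderate against no or early called 4 members, all lower (4.62% of all genes were called lower): Unc13c (-1.06, adjusted p = 0.000116), Cplx1 (-0.85, adjusted p = 0.00924), Rims3 (-0.80, adjusted p = 0.00245) and Vamp1 (-0.51, adjusted p = 0.0169). Severe against moderate called 10, all lower (2.46% of all genes), led by Unc13c (-3.10, adjusted p = 2.81e-17), Cplx1 (-2.17, adjusted p = 5.37e-09) and Rims1 (-1.18, adjusted p = 0.013). The other 7 were Syt4, Syt13, Syn2, Syn1, Rims3, Vamp1 and Cplx2, between -1.01 and -0.53. Without severe arrays 3 and 6 that count was 4. Severe against no or early called 23 lower and none higher (9.88% and 3.35% of all genes), with a median of -0.77, and 5 of them had no overlap (0.653% of all genes): Unc13c, Cplx1, Rims1, Rims3 and Vamp1. These comparisons share arrays with each other and with those against control.

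In the severe retina fewer members were called, in both directions. Of the 38 members tested, 15 fell against control, 6 rose and 17 were not called, where 18.2% of all 11322 genes were called lower and 13.8% higher, so the share of members that rose was near that of all genes. The median difference was -0.08 over the members and -0.02 over all genes. Cplx1 fell 3-fold and Vamp1 fell 2.36-fold, while Sv2a rose by 0.23 on the log2 scale. There was no overlap on the low side for 9 members (Cplx1, Vamp1, Rims3, Syn1, Syn2, Syt2, Syt13, Rab3c and Rims1) and on the high side for 1, Sv2a, against 4.57% and 2.72% of all genes.

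Of the complexins and SNARE fusion genes, Cplx1, Vamp1 and Stx1a fell in the severe retina and Cplx4 rose. Cplx1 had 6.77, 7.02 and 7.41 as its lowest, median and highest signal in severe retinas, against 8.44, 8.65 and 8.90 in control retinas, a gap with no overlap (-1.59, SE 0.133, adjusted p = 2.25e-13, n = 10 and 10). Vamp1 had 5.79, 6.09 and 6.40 in severe and 7.07, 7.38 and 7.56 in control retinas, also apart (-1.24, SE 0.123, adjusted p = 3.89e-11). Stx1a fell by 0.43 (adjusted p = 0.0271) and Napb by 0.09 (adjusted p = 0.0283). The Napb call was kept in 15 of 20 fits that each left out 1 array. Snap25 had 12.89, 12.90 and 12.95 in severe and 12.86, 12.93 and 13.02 in control retinas, with the severe arrays inside the control range (-0.02, 95% interval -0.08 to 0.04). Vamp2 was within 95% limits of -0.11 and 0.09 of its control level, Nsf within -0.02 and 0.14, and Cplx3 within -0.12 and 0.13. Cplx4 had 11.64, 11.75 and 11.80 in severe and 11.59, 11.65 and 11.70 in control retinas, with overlap, and rose by 0.10 (adjusted p = 0.0182). Cplx2 was not called at 0.03, although its other tested probe sets were called lower at -0.50 and -0.66.

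Both synapsins, Rims3 and Rims1 also fell in the severe retina. Syn2 had 9.34, 9.62 and 9.91 in severe and 10.14, 10.27 and 10.39 in control retinas (-0.64, SE 0.0728, adjusted p = 1.92e-09). Syn1 had 6.53, 6.77 and 7.06 in severe and 7.14, 7.37 and 7.53 in control retinas (-0.57, SE 0.0945, adjusted p = 7.02e-06). Rims3 had 7.71, 7.88 and 8.15 in severe and 8.50, 8.62 and 8.77 in control retinas (-0.70, SE 0.098, adjusted p = 2.12e-07). All 3 separated severe from control arrays. Rims1 fell by 0.19 (adjusted p = 0.0423, a call kept in 8 of 20 fits that each left out 1 array), Rab3b by 0.30 and Rab3c by 0.26, while Rims2 (0.01), Rab3a (-0.11), Bsn (0.09) and Pclo (-0.00) were not called.

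Of the 9 synaptotagmin and Doc2 genes tested in the retina, 5 fell and 1 rose at the severe stage. Syt2, a fast sensor close to Syt1, had 3.91, 4.14 and 4.42 in severe and 4.68, 4.98 and 5.50 in control retinas (-0.80, SE 0.114, adjusted p = 2.96e-07), but all its severe and moderate arrays lay under log2 5. It passed the filter only through 5 control and 6 no or early arrays, so its fall is not independent of the filter, and without it 14 members fell and 8 had no overlap on the low side. Syt13 fell by 0.34, Syt5 by 0.29, Syt4 by 0.26 and Syt11 by 0.21. Syt9 rose by 0.15 (adjusted p = 0.0328), a call kept in 16 of 20 fits that each left out 1 array. Syt1 was not called (0.08, adjusted p = 0.106), although its other tested probe sets were called higher at 0.36 and 0.44. Of the priming genes, Cadps2 rose by 0.21 (adjusted p = 0.0238). Unc13c had 8.06, 8.22 and 8.56 in severe and 8.18, 8.33 and 8.45 in control retinas, and was not called (-0.06, 95% interval -0.24 to 0.11). Unc13b was not called at 0.15 (adjusted p = 0.0938), while another of its probe sets fell by 1.11 (adjusted p = 1.56e-10), so its probe sets disagreed.

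Of the 4 vesicle membrane genes, 3 rose in the severe retina. Sv2a had 10.49, 10.61 and 10.72 in severe and 10.27, 10.40 and 10.48 in control retinas, with every severe array above every control array (0.23, SE 0.0703, adjusted p = 0.00893). Sv2b had 11.20, 11.25 and 11.44 in severe retinas, against a median of 11.18 and a highest value of 11.24 in control retinas, with overlap (0.13, SE 0.0381, adjusted p = 0.00967), and Synpr rose by 0.10 (adjusted p = 0.0339). Syp was not called (-0.09).

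**Figure D4:**
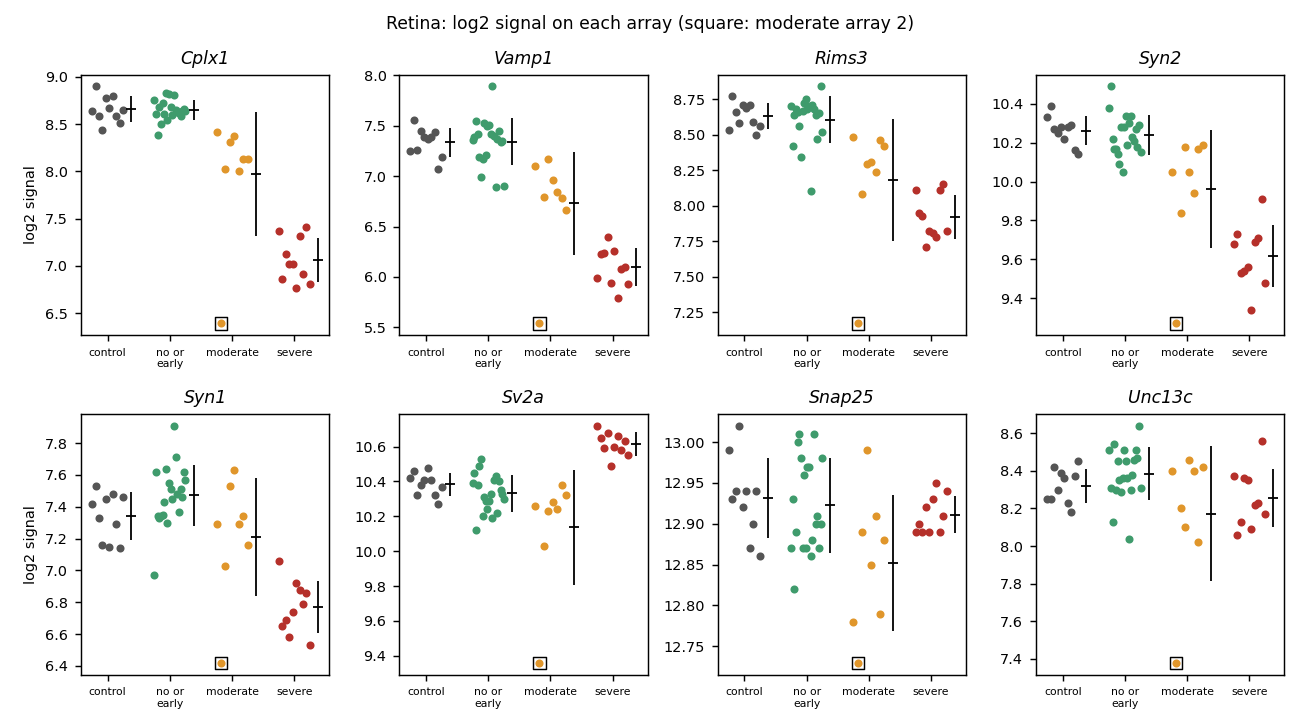
Log2 signal (y axis) of selected members on each retina array, by stage from control to severe (x axis), with the mean and SD beside each group. A square marks moderate array 2. Cplx1, Vamp1, Rims3, Syn2 and Syn1 are lowest in severe retinas apart from the marked array, Sv2a is highest there, and Snap25 and Unc13c overlap in all groups.

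In the severe retina the ganglion cell markers were called lower in 10 of 11 tested (15 listed; median -2.67), with list means of 5.61 to 6.75 in severe and 8.12 to 8.35 in control retinas. Of the 11 amacrine and horizontal cell markers tested, 1 rose and 1 fell (list means 9.32 to 9.61 in severe and 9.56 to 9.70 in control retinas), and none of the 8 bipolar markers tested was called (list means 8.72 to 8.86 in severe and 8.67 to 8.90 in control retinas). Müller glia markers rose in 4 of 6. The part of any of these cells in the members' differences was not tested.

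At the moderate stage 13 of the 38 members were called in the retina against control, 12 lower and 1 higher, where 8.4% of all genes were called lower and 7.08% higher. Cplx1 had 6.39, 8.13 and 8.42 in moderate retinas, just below the control range of 8.44 to 8.90 (-0.69, SE 0.14, adjusted p = 0.000499). Cplx1, Rims2 and Rims3 had no overlap, against 0.645% of all genes on the low side. Vamp1 fell by 0.61 (adjusted p = 0.000848), Rims3 by 0.45, Rims2 by 0.43 (adjusted p = 8.87e-05), Rab3c by 0.40, Syn2 by 0.30, Sv2a and Pclo by 0.25 each, Rims1 by 0.24, Cadps by 0.22 and Napb by 0.10. The other of the 12, Syt2, was under log2 5 on all moderate arrays and passed the filter only through the earlier groups. Bsn, which anchors the ribbon at photoreceptor terminals, rose by 0.27 (adjusted p = 0.0118), but not all of its tested probe sets were called. Moderate array 2 was the lowest of its group for Cplx1, Vamp1, Rims1, Rims3, Syn2 and Sv2a, with an amacrine list mean of 8.29 against 9.56 to 9.70 in control retinas, and the count was 8 without it, when 9.13% of all genes were called in either direction, against 15.5% with it. It was 2 among mice of the control number range (1.5% of all genes), 6 with that range as a factor (6.32%), and 1 with the photoreceptor list mean as a covariate (2.93%). Ganglion cell markers were called lower in 8 of 11 at this stage (median -0.60; list means 6.93 to 8.07 in moderate and 8.12 to 8.35 in control retinas), amacrine and horizontal cell markers lower in 4 of 11 (median -0.26) and bipolar markers lower in 2 of 8, while astrocyte markers were higher in 3 of 6. Their part in the members' differences was not tested.

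Severe against moderate retinas called 10 members lower and 6 higher (21.5% and 16.9% of all genes). Cplx1 (-0.90), Vamp1 (-0.63), Syn1 (-0.44) and Syn2 (-0.34) were lower, and Sv2a (0.48, adjusted p = 2.16e-06), Rims2 (0.44, adjusted p = 2.40e-05), Pclo (0.25) and Sv2b (0.20) were higher, and these first 3 had been called below control in moderate but not in severe retinas. Without moderate array 2, Sv2a and Pclo were not called below control in moderate retinas (adjusted p = 0.0647 and 0.0762), while Rims2 was. Sv2a and Sv2b had no overlap on the high side, against 2.15% of all genes. Severe against no or early retinas called 16 lower and 4 higher (24.2% and 19.9% of all genes), and moderate against no or early 15 lower and none higher (7.51% and 7.65%). Syt2 was tested in both of these comparisons. It passed the filter only through control and no or early arrays, so its difference there is not independent of the filter. In no or early retinas none of the 38 members was called against control by limma (0.0442% of all genes). At an unadjusted p under 0.05 there were 2, Syp (0.14) and Bsn (0.20), and the other fits that moved called at most 1. Those last counts stand without a share of all genes.

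In 48 eyes both tissues were measured, so the change in the ONH could be tested against that in the retina of the same eye. For severe against control eyes, 23 of 36 members had the lower change in the ONH and none the higher, where 12.3% of all 10748 genes were called in that direction, and 5 had no overlap (0.958% of all genes). Unc13c differed most: its ONH minus retina signal was -2.15, -1.17 and 0.45 (lowest, median and highest) in severe eyes and 2.47, 3.13 and 3.42 in control eyes, a difference of -4.27 (SE 0.211, adjusted p = 1.26e-20). The ONH signal exceeded that of the retina in 10 of 10 control eyes and in 1 of 10 severe eyes. In control eyes 5 of the 36 members had a higher mean in the ONH than in the retina (Unc13c, Cadps2, Cplx2, Syt11 and Rims1), and the median over members was -0.73. Whether the tissues were normalised together is not given in the sources used here, so these levels across tissues carry that limit.

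The difference between tissues was -1.73 for Rims1 (adjusted p = 0.000136), -1.67 for Rims2 and Syt4, -1.64 for Cplx1 (adjusted p = 2.38e-06) and -1.48 for Sv2a (adjusted p = 8.77e-05), which fell in the ONH and rose in the retina. Vamp1 fell in both tissues and its difference between them was -0.06, which was not called. Its severe ONH signals, 4.99 to 5.46, lay near log2 5, so the size of its ONH fall is uncertain and equal changes cannot be concluded. Snap25 was not called either. For moderate eyes 3 members were called (4.64% of all genes), Unc13c (-1.17, adjusted p = 0.000477), Rims3 (-0.73) and Syn2 (-0.73), and that count was 24 without the arrays that stood apart and the mouse with low Xist, when 15.9% of all genes were called in either direction, against 7.23% with them. Against no or early eyes, severe eyes gave 18 members with a larger fall in the ONH and 2, Stx1a (0.87, adjusted p = 0.0205) and Syt11 (0.30, adjusted p = 0.0306), with the opposite sign (9.7% and 5.52% of all genes).

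**Figure D5:**
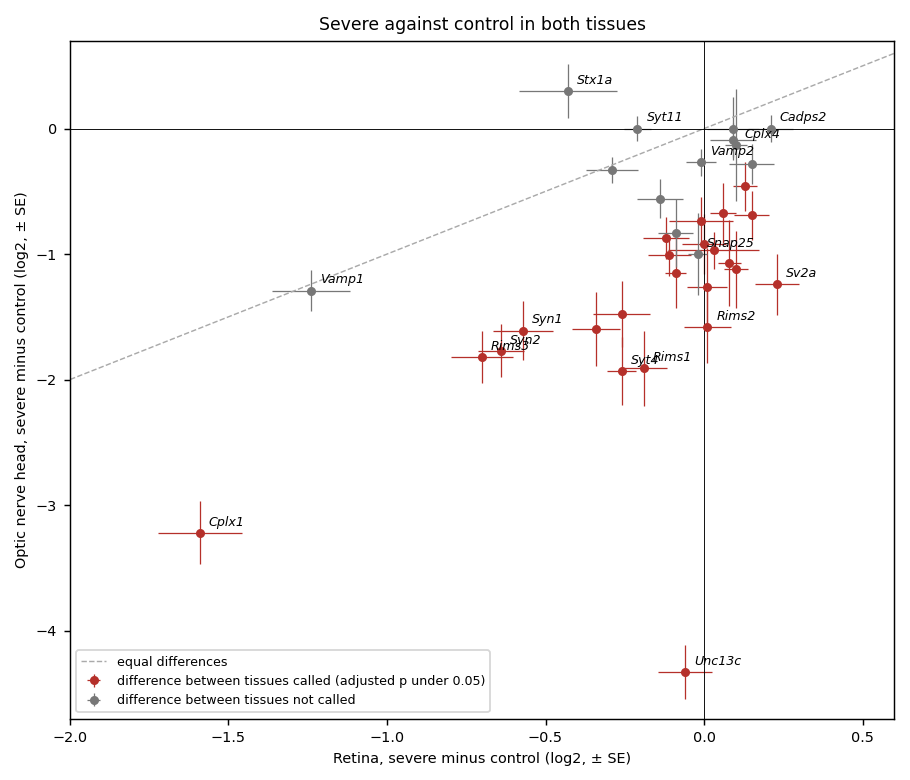
Severe minus control in the ONH (y axis) against severe minus control in the retina (x axis), log2, with SE bars, for the members tested in both tissues. Points on the dashed line have equal differences. Vamp1 lies on the line, Cplx1 below it, and Unc13c at -4.33 in the ONH and -0.06 in the retina.

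Partner genes of the release machinery also fell in the severe ONH. Over all genes tested there, 13.5% were called lower and 10.7% higher, with a median difference of 0.00. In severe ONHs 10 of 17 tested genes of the active zone and calcium channels were called lower (18 listed; median -0.68) and none higher. Rph3a, rabphilin, which binds Rab3, had the widest gap, at -3.60 (adjusted p = 5.05e-18), followed by Ppfia3, a liprin scaffold, at -2.28 (adjusted p = 9.64e-15), and Cacna1b, the N-type channel, at -1.70. Of the other SNARE partners 4 of 10 (12 listed; median -0.26), of the endocytosis genes 10 of 18 (20 listed; median -0.45), of the transmitter loading genes 5 of 10 (12 listed; median -0.33) and of the postsynaptic genes 12 of 13 (21 listed; median -0.85) were lower, with none higher. Dnm3, a dynamin of vesicle recovery, fell by 1.51, and Atp6v1g2, a neuronal proton pump subunit, by 1.44 (adjusted p = 6.39e-08). The postsynaptic receptors Gria2 and Grin2b fell by 1.21 each.

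In severe retinas these lists were mixed, beside the 18.2% of all genes called lower and 13.8% called higher. Active zone and channel genes were lower in 5 and higher in 2 of 17, other SNARE partners lower in 4 and higher in 3 of 10, endocytosis genes lower in 4 of 18, transmitter loading genes lower in 5 of 10 and postsynaptic genes lower in 3 of 14. Rph3a fell by 0.72 (adjusted p = 0.000233), Apba1 by 0.63 (adjusted p = 3.66e-08) and Atp6v1g2 by 0.47 (adjusted p = 2.71e-07). Stx3, the syntaxin of ribbon synapses, rose by 0.18 (adjusted p = 3.34e-06), and Ctbp2, whose locus also encodes the ribbon protein RIBEYE, by 0.17 (adjusted p = 0.00248).

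Where a member had several tested probe sets (19 members in the ONH and 21 in the retina), none had opposite calls among them in severe or moderate against control. Some sets passed the threshold and others did not for 2 members in severe ONHs (Nsf and Syt1). In severe retinas this held for 9 (Cplx2, Napb, Nsf, Rims1, Syt1, Syt11, Syt4, Syt7 and Unc13b). At the moderate stage it held for 3 members in ONHs (Cplx2, Rims1 and Syt4) and for 5 in retinas (Bsn, Napb, Pclo, Rab3c and Syn2). Rims2 was the 1 member of the 36 tested in both tissues whose chosen probe set differed between them, and the comparison between tissues used the same probe set for both. Cplx1 fell in both its ONH probe sets (-3.22 and -2.95), and in the retina its sets gave -1.59, -1.74 and -0.39.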

How the data were processed

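RNA of ONHs and retinas (20 ng, amplified with NuGEN Ovation kits per the labels' protocols, 2.5 µg hybridised) was measured on Affymetrix mouse expression arrays. The authors deposited log2 RMA values for 45101 probe sets on 108 arrays, from 1.81 to 14.31, made with GCOS, RMA and affy per the submitters' processing notes, which give no versions. Of the probe sets, 34958 had 1 gene symbol, 932 several and 9211 none in the platform annotation, and 34754 of the single-gene sets were matched by Entrez ID. Array medians were 4.88 to 5.23 in the ONH and 5.02 to 5.16 in the retina, and the number of arrays limits the precision.

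The members and the other lists were chosen with earlier results of these data known. Per tissue and gene, the single-gene probe set with the highest mean was kept if it reached log2 5 on at least 8 arrays. limma 3.58.1 in R 4.3.3 fitted all stage groups of a tissue, without covariates, with the mouse as a random block (correlation 0.0774 in the ONH and 0.0366 in the retina). A no or early group is the equal-weight mean of both sets. Benjamini-Hochberg adjustment ran over all genes per comparison, and a call is an adjusted p under 0.05. ONH minus retina differences of 48 eyes were fitted likewise. The fits were tested on simulated data. Python 3.11.15, pandas 2.3.3, numpy 2.4.6 and matplotlib 3.10.9 made tables and figures.

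All members may be named. Given in full were, per tissue, up to 8 falls and 6 rises called in severe against control, members called elsewhere, and Unc13a, Unc13b, Unc13c, Snap25, Syt1, Syp, Vamp1, Vamp2, Sv2a, Sv2b, Sv2c, Cplx1, Cplx2, Cplx3, Cplx4 and Bsn. Of each other list, up to 4 called genes were named by size, and a few further values were chosen after they were seen. The mouse was read from the number in the labels. Alternatives covered array weights, the filter, probe set averaging, blocks, covariates, a repeated quantile normalisation and left-out arrays.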

Additional observations from a re-analysis of the deposited data

Results flagged for a closer look

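Of 370 groups of member values, 41 (11.1%) had a highest or lowest array farther from the others than Dixon's 95% limit. The second no or early ONH set, with 11 arrays, was not checked, because the limits used covered smaller groups only. Chance gives about 1 in 20 such groups, and 1 array often lay apart in many members at once, so these values are not independent. No explanation was weighed.

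In the retina, moderate array 2 was the lowest of its group for 27 of the 38 tested members, and past that limit for 14 of them. For these its signals were 7.38 for Unc13c, 8.90 for Cadps, 5.54 for Vamp1, 6.39 for Cplx1, 7.45 for Cplx3, 7.55 for Syt7 and 8.66 for Syt9. They were 9.36 for Sv2a, 9.27 for Syn2, 9.78 for Rab3a, 7.32 for Rab3c, 9.81 for Rims1, 7.17 for Rims3 and 10.52 for Napb. In the second set of no or early retinas, array 3 was the highest for Unc13b (10.74), Cplx1 (8.81) and Syp (11.41) and the lowest for Vamp2 (11.20), Cplx4 (11.36), Syt13 (8.99) and Rims3 (8.10). Among severe retinas, Cplx4 was lowest on array 4 (11.64), Synpr was lowest on array 1 (11.07) and Syt4 was highest on array 9 (10.35). In the first no or early set, Syn1 was lowest on array 1 (6.97).

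In the ONH, control array 10 was the lowest of its group for Cadps (8.35), Snap25 (11.81), Cplx3 (6.28), Syt1 (8.67), Synpr (9.53), Rims3 (7.07) and Nsf (8.53). Severe array 6 was lowest for Snap25 (6.58) and Cplx4 (4.01), and severe array 9 was highest for Unc13c (9.01). Preglaucoma array 5 was lowest for Vamp2 (9.96), Syt13 (7.57) and Rims3 (6.54), preglaucoma array 9 was lowest for Unc13c (10.65), and preglaucoma array 8 was highest for Sv2a (10.19). Cplx2 was lowest on array 10 of the first no or early set (8.86).

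The change from control differed between ONH and retina for 23 members in severe eyes, all with the larger fall, or a fall against a rise, in the ONH (limma on ONH minus retina of the same eye, adjusted p under 0.05). The differences of the changes were -4.27 for Unc13c, -1.73 for Rims1, -1.67 for Rims2 and Syt4, -1.64 for Cplx1, -1.48 for Sv2a, -1.27 for Syt13 and Cplx3, -1.23 for Rab3c and Synpr, and -1.15 for Syt1. They were -1.14 for Syn2, -1.13 for Rims3, -1.07 for Napb, -1.06 for Syn1, -1.01 for Cplx2, -0.92 for Pclo, -0.90 for Rab3a, -0.85 for Syt9, -0.75 for Cadps, -0.74 for Syt7, -0.73 for Nsf and -0.59 for Sv2b. In moderate eyes they were -1.17 for Unc13c and -0.73 for both Rims3 and Syn2.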

How the results depend on the processing

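Of the recomputed counts of called members, 125 stayed within 1.5 times the reported count and 54 did not. The cause was not tested beyond the fewer arrays or groups that some settings leave. The share of all genes called also moved between settings, as given above for moderate ONHs. The counts below stand without that share and do not by themselves show a change in the members.

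With array weights the counts were 11 in ONH moderate against no or early, 1 in ONH no or early against control, 2 against preglaucoma, 3 in preglaucoma against control, 8 and 6 in moderate retinas against control and no or early, and 10 in the tissue difference of moderate eyes. Averaging all probe sets gave 7 in ONH moderate against no or early, 4 in no or early against preglaucoma and 5 in preglaucoma against control. No filter on low values gave 5 and 5 in those last comparisons. Without the mouse block the tissue difference of moderate eyes gave 5, and no or early against preglaucoma 1, as did a repeated quantile normalisation. Fitting only the groups compared gave, in the ONH, 9 for moderate against no or early, 2 for severe against moderate, 2 for no or early against control and against preglaucoma, and 3 for preglaucoma, and in the retina 4 and 5 for moderate against control and no or early (moderate against no or early had no mouse block there, since its correlation could not be estimated).

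The mouse-number range as a factor gave 7 in moderate ONHs and 6 in moderate retinas against control, and it could not be fitted with preglaucoma mice, which lie in other ranges. Mice of the control range alone gave 0 and 2 in those comparisons and 1 in no or early retinas. The photoreceptor covariate gave 26 in ONH moderate against control, 20 against no or early, 1 in no or early against control, 1 against preglaucoma, 3 in preglaucoma, and 1 and 2 in moderate retinas against control and no or early. The amacrine and bipolar covariate, chosen after seeing the data as were the range-only and left-out-array fits, gave 13 in ONH severe against control, 10 in moderate against no or early, 1 in no or early against control and 3 against preglaucoma.

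Without moderate array 2 the retina gave 8 and 7 for moderate against control and no or early. Without severe arrays 3 and 6, ONH severe against moderate gave 4. Without all arrays that stood apart and the mouse with low Xist, the ONH gave 25 for moderate against control, 20 against no or early, 7 for no or early against control, 1 against preglaucoma, 3 for preglaucoma, 2 for severe against moderate and 15 against no or early. The retina then gave 8 and 7 for moderate against control and no or early, and the tissue difference 24 for moderate against control and 10 for severe against no or early.

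Same replicate numbers did not pair the samples (mean correlation 0.10 in the ONH and -0.02 in the retina), and a replicate block gave 2 in ONH no or early against preglaucoma and 2 in preglaucoma against control, with all other counts within 1.5 times. Leaving out 1 array at a time gave 23 to 29 members in ONH severe, 9 to 17 in ONH moderate, 17 to 21 in retina severe and 8 to 15 in retina moderate, each against control. In all of those fits 23 of 27, 9 of 15, 15 of 21 and 8 of 13 calls held.

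Sign reversals are listed for members called in the main fit, the other fit or both. With the amacrine and bipolar covariate these were, in ONH severe against control, Cplx3 (0.16), Cplx4 (1.54), Napb (0.12), Nsf (0.33), Pclo (0.13), Snap25 (0.25), Synpr (0.24), Syp (0.31), Syt1 (0.45) and Syt9 (0.11). In ONH moderate against control they were Napb (0.24), Syp (0.43) and Syt1 (0.48). Sign changes of members called in neither fit, such as Vamp2 in severe ONHs (-0.27 to 0.11), are left out. Cplx4 in severe ONHs was 0.29 with the photoreceptor covariate and 0.77 without severe arrays 3 and 6. The mean of all probe sets reversed Cplx2 (-0.38), Napb (0.11), Syp (0.10) and Unc13b (-0.48) in severe retinas. Members near the lower end of the signal range, such as Syt2, Unc13a, Doc2b and, in severe ONHs, Cplx1 and Vamp1, had little room to show a fall.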
